A study of Mus musculus with 3 samples.

Results

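The 10 immediate early genes described here were measured with 3 Affymetrix arrays, each hybridized with the pooled back-skin RNA of 1 group of mice. They were taken by platform gene symbol and are Fos, Fosb, Jun, Junb, Egr1, Egr2, Atf3, Nr4a1, Ier2 and Dusp1, so that 10 of 18193 genes and 12 of 45037 probe sets are described. They had been chosen by their signals on these same arrays, of which the ratios of Nr4a1 and Dusp1 and the counts of a wider list of immediate early genes were already known, so their ratios of KO to WT and of KOE to KO are given as a description. Jun and Egr2 have 2 probe sets each and the other 8 genes have 1, and 0 probe sets name one of these genes together with another gene. The KOE group held male Interleukin-10 knockout mice given an 8% pESM-supplemented diet (pESM is powdered eggshell membrane). The KO group held male Interleukin-10 knockout mice given an AIN-93-based diet, and the WT group held C57BL/6J mice given that same AIN-93-based diet. The sex of the WT mice is not stated. The groups held 6 KOE, 7 KO and 5 WT mice, fed for 28 weeks from 4 weeks of age, and 250 ng of pooled RNA was labelled. The knockout mice were homozygous and descended from B6.129P2-IL-10<tm1Cgn>/J males and C57BL/6J females, and all groups were housed individually. The dermal white adipose tissue had been removed before the RNA was extracted.

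Immediate early genes are switched on within minutes by growth factors, cytokines, stress and wounding, without new protein synthesis, through transcription factors that are already bound or are quickly phosphorylated by MAP kinases. Fos and Jun proteins pair through leucine zippers to form the AP-1 factors, Egr1 and Egr2 are zinc finger factors, Atf3 is a stress-induced leucine zipper factor that often represses its targets, Nr4a1 is an orphan nuclear receptor, and Ier2 is a short nuclear protein. Dusp1 is induced by the same signals and removes phosphate from p38 and JNK, which ends the response. In skin, AP-1 factors act in keratinocyte growth and differentiation and in inflammation.

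The sequences before the start sites of 8 of the 10 genes are shown as a description. They are from RefSeq (GRCm38.p6), read 5′ to 3′ on the gene's own strand and ending 1 base before the annotated start, except for Fosb and Egr2, for which only a stretch around the match is given. The annotated Fosb gene begins 73 bases before this start, within the window, and Egr2 has 5 windows with other starts before this one, so that its second half-site is not shown. The annotated Nr4a1 gene begins 12944 bases before the start used here, so that its printed window lies inside the gene. Capitals mark the CRE half-site, which is TGACG or on the other strand CGTCA, and in Egr2 also the CArG box, the site of serum response factor. The genes are in descending order of the ratio of KO to WT.
Atf3, chr1:191183334-191183583, minus strand: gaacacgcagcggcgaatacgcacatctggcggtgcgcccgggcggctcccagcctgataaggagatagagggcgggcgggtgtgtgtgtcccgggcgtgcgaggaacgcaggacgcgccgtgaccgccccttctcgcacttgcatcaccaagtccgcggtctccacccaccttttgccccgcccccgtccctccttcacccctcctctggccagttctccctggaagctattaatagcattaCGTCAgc
Nr4a1, chr15:101266596-101266845, plus strand: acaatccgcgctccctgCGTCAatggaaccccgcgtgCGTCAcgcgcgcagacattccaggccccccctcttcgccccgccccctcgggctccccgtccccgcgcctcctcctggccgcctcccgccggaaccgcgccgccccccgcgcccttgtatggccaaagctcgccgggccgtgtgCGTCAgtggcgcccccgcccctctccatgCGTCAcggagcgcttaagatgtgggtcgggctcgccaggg
Fosb, chr7:19310088-19310117, minus strand: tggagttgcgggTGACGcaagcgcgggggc
Dusp1, chr17:26508473-26508722, minus strand: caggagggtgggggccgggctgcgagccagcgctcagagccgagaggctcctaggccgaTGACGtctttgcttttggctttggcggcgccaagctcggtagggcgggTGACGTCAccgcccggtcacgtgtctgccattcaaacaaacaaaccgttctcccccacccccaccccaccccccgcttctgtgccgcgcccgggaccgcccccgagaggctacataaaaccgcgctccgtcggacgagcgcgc
Fos, chr12:85473640-85473889, plus strand: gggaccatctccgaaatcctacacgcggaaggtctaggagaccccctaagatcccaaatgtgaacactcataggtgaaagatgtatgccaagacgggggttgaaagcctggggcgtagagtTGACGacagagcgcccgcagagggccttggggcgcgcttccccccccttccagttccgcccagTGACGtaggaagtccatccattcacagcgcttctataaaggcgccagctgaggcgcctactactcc
Jun, chr4:95052223-95052472, minus strand: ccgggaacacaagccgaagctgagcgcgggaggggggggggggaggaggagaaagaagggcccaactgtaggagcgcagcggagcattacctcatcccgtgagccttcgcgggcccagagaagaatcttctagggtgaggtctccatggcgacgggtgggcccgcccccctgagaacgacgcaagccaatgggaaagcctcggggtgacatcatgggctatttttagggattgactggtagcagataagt
Junb, chr8:84978749-84978998, minus strand: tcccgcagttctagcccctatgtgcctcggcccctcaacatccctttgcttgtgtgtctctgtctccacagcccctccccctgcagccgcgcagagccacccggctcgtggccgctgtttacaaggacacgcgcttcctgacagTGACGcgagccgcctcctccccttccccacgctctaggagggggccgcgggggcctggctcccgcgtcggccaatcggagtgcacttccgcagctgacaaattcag
Egr2, chr10:67537797-67537818, plus strand: CCATATATGGgcagcgaCGTCA

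A CRE half-site, at which CREB and ATF proteins can bind, was found in 7 of these 8 windows of 250 bases, beside 17.8% of the 32851 RefSeq windows of this length. Nr4a1 had 4 matches, Dusp1 had 3, of which the pair beginning 143 and 140 bases before the start overlap on opposite strands, and Fos and Egr2 had 2 each. Jun had none. In Atf3 the only match began 7 bases before the start, and in Junb it began 106 bases before. A CArG box was found in 1 of the 8 windows, that of Egr2, and in 1.47% of all windows. Bases farther than 250 before the start were not searched, so a site there would not be counted. The EGR site GCGNGGGCG was found on either strand in Fosb and Nr4a1, overlapping a GC box in both, and in 4.70% of all windows. The GC box GGGCGG was found on either strand in 6 of the 8 windows and in 32.7% of all windows. The AP-1 site TGANTCA was found in 0 of the 8 windows and in 6.75% of all, and TATAAA, searched on the gene's strand, in Fos only and in 7.59% of all. The matches were not compared with the ratios between the pools. A match is a match of letters and was not tested for binding. Any part of these motifs in the differences between the pools was not tested either.

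**Figure D1:**
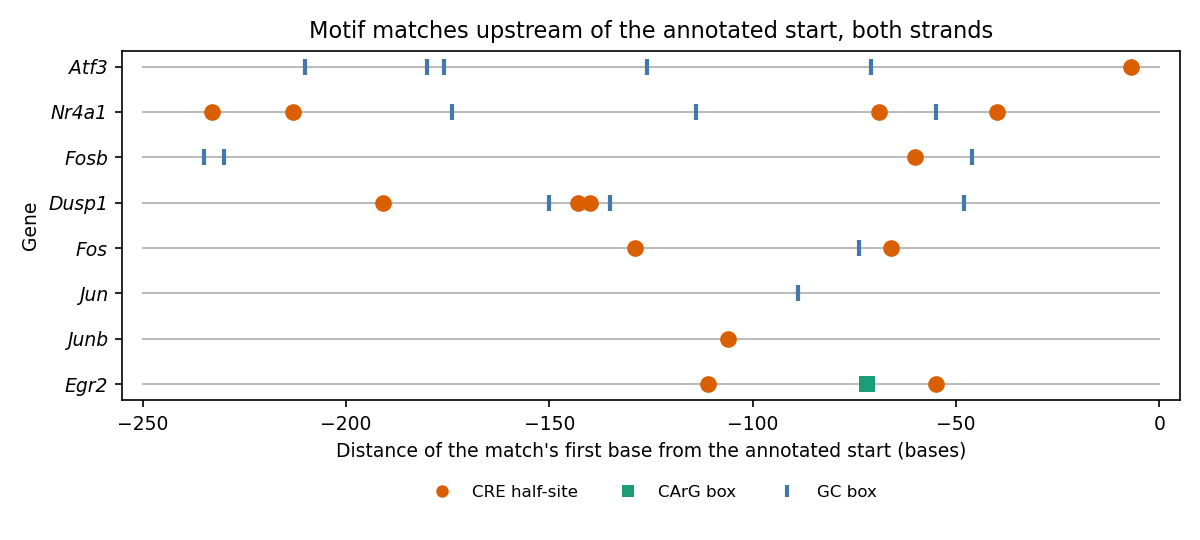
Position of motif matches in the 250 bases before the annotated start of 8 genes, with the distance of the first base of each match from the start on the horizontal axis and the genes in descending order of the ratio of KO to WT. CRE half-sites lie in 7 of the 8 windows and the single CArG box lies in Egr2.

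All values are linear signal intensities made by the authors with Affymetrix software, and each array had been scaled to the same trimmed mean. A gene is called higher or lower past the cut-off when its signals differ by at least 1.5-fold and reach 40 in at least 1 of the 2 arrays compared. All 12 probe sets passed this limit in every array, with signals between 135 and 12591. With 1 array per group there is no replicate error and no test across mice, and the ratios describe these pools. Different probe sets of 1 gene give the only measure of technical spread. Those probe sets share 1 labelled pool per array, so variation from pooling, labelling and hybridization is left out. Their log2 fold changes for KO vs. WT had a within-gene SD of 0.35 over 6055 genes, of 0.36 for probe sets with mean signals of 100 to 1000 and of 0.16 for those of 1000 or more. For KOE vs. KO these SDs were 0.28, 0.29 and 0.15. The Interleukin-10 gene itself, Il10, had a signal of 401 in KOE, 679.9 in KO and 17.0 in WT, and so was higher in the pools labelled as knockout. Its 1 probe set (1450330_at) is of a design that reads the 3′ end of transcripts, and whether it lies in the altered part of the allele is not known here, so it does not check the labels. In bulk skin, fewer cells of a type and less RNA per cell cannot be told apart.

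The 3 largest differences were those of Atf3, Nr4a1 and Fosb. Nr4a1 (probe set 1416505_at) had a signal of 948 in KOE, 3580.3 in KO and 495 in WT. The KO pool thus stood 7.24-fold above WT, and KOE was 3.78-fold below KO and 1.92-fold above WT. Atf3 (1449363_at) had 715 in KOE, 1573 in KO and 207 in WT. Its ratio of KO to WT, 7.59, was the highest of the 10 genes, and KOE was 2.20-fold below KO but still 3.45-fold above WT. Fosb (1422134_at), the weakest signal of the set, had 179 in KOE, 666 in KO and 135 in WT, so that it was 4.92-fold higher in KO than in WT and 3.72-fold lower in KOE than in KO. Among the 13097 genes that reached 40 in the KO array and in the WT array as well, the ratios of Atf3, Nr4a1 and Fosb ranked 5, 6 and 12 from the highest. Over the genes that count toward the cut-off, many of them weak in 1 array, they ranked 69, 75 and 132 among 14495.

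Fos, Dusp1 and Ier2 differed in the same direction by smaller ratios and from stronger signals. Fos (1423100_at) had 4876 in KOE, 8737 in KO and 4756 in WT, a ratio of 1.84 for KO to WT, and KOE was 1.79-fold below KO. The KOE and WT signals of Fos lay within 1.03-fold of each other. Dusp1 (1448830_at) had 5839.8 in KOE, 8007 in KO and 3709.5 in WT. It was 2.16-fold higher in KO than in WT and 1.57-fold higher in KOE than in WT, while KOE was 1.37-fold below KO, which is under the cut-off. Ier2 (1416442_at) had 3268 in KOE, 4239 in KO and 2609.7 in WT, with KO 1.62-fold above WT. Ier2 in KOE was at 0.77 of its KO value, also under the cut-off.

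Egr1 lay just past the cut-off and Jun just under it. Egr1 (1417065_at), the strongest signal of the set, had 11744 in KOE, 12591 in KO and 8252 in WT, a ratio of 1.53 for KO to WT, which was under the cut-off after cyclic loess normalization (log2 0.44). KOE and KO were within 1.07-fold of each other. Jun had 2413 in KOE, 2871 in KO and 1992 in WT at its stronger probe set (1417409_at), a ratio of 1.44, and 1281, 1219 and 1078 at the weaker one (1448694_at), a ratio of 1.13. The stronger probe set of Jun was past the cut-off after scaling to a common median (log2 0.80), and the weaker one placed KOE 1.05-fold above KO where the stronger placed it below. Junb (1415899_at) had 1352 in KOE, 1495 in KO and 1233 in WT, with KO at 1.21-fold the WT value.

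Egr2 was the exception in direction, at both probe sets. At 1427683_at it had a signal of 3220.5 in KOE, 2557 in KO and 3154 in WT, and at 1427682_a_at it had 2257, 2102 and 2729.6. The ratio of KO to WT was 0.81 and 0.77, and that of KOE to KO was 1.26 and 1.07, none of them past the cut-off. After median scaling the log2 fold change of the stronger probe set for KO vs. WT was −0.03, against −0.30 as deposited.

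**Figure D2:**
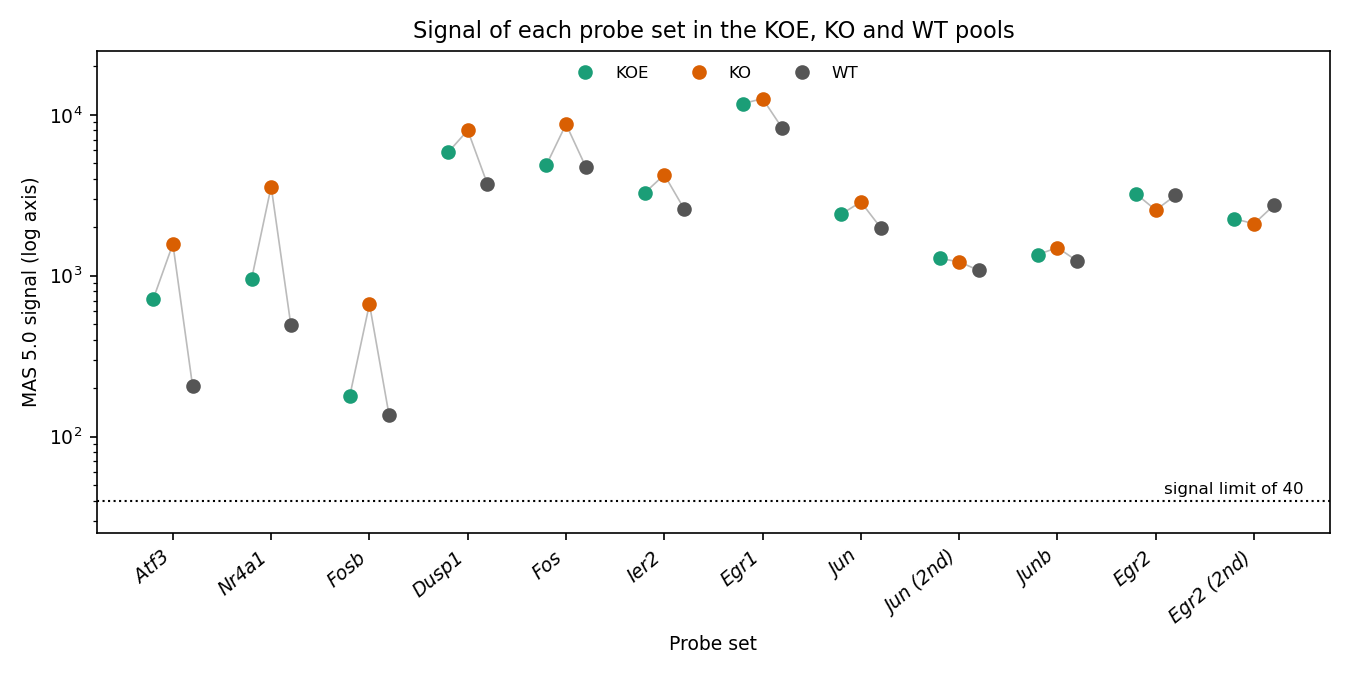
Signal of each of the 12 probe sets in the KOE, KO and WT pools, 1 point per array on a log axis, with grey lines joining the points of a probe set and a dotted line at the limit of 40. KO is the highest of the 3 points in Atf3, Nr4a1, Fosb, Dusp1, Fos, Ier2, Egr1, Junb and the stronger Jun probe set, and the lowest at both Egr2 probe sets.

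Set against the WT pool, the KO pool had 7 of the 10 genes higher past the cut-off (Atf3, Nr4a1, Fosb, Dusp1, Fos, Ier2 and Egr1) and 0 lower, with Jun, Junb and Egr2 under it. Over all genes, 10.9% of 14495 were higher and 14.5% were lower. Because the choice of the genes used this contrast, nothing is read from the count. Their median log2 fold change was 0.79, with a range of −0.30 to 2.92 and an SD between genes of 1.12, beside a median of 0.01 over all genes. Atf3, Nr4a1 and Fosb lay between 2.30 and 2.92 and the other 7 genes at 1.11 or less. Of the calls over all genes, 42.9% were in the higher direction as deposited, 72.4% after median scaling, which moved each log2 value up by 0.27, 57.4% with quantile and 52.5% with cyclic loess normalization. Under these scalings 8, 7 and 6 of the 10 genes were higher, beside 23.2%, 14.7% and 13.0% of all genes. None of the 10 was lower, beside 8.88%, 10.9% and 11.8% of all genes.

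Set against the KO pool, the KOE pool had 4 of the 10 genes lower past the cut-off (Nr4a1, Fosb, Atf3 and Fos) and 0 higher. Over all genes, 5.33% of 14594 were lower and 10.9% were higher. For the 10 genes the median log2 fold change was −0.42, with a range of −1.92 to 0.33, beside 0.02 over all genes. Nr4a1 and Fosb had the 4th and 5th lowest ratios among the 13204 genes that reached 40 on the KOE array and on the KO array, and were 93rd and 96th from the lowest among all 14594. Dusp1, at a log2 fold change of −0.46 as deposited, was past the cut-off after median scaling (−0.61). This comparison and the one before it share the single KO array and are not independent of each other. Of the calls over all genes, 67.1% were in the higher direction as deposited, against 47.1%, 49.6% and 48.7% after median scaling, quantile and cyclic loess normalization. Under these, 5, 4 and 4 of the 10 genes were lower, beside 9.01%, 7.83% and 7.53% of all genes.

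Set against the WT pool, the KOE pool had 3 of the 10 genes higher past the cut-off (Atf3, Nr4a1 and Dusp1) and 0 lower, beside 12.4% and 10.4% of 14784 genes. The median log2 fold change was 0.36, against 0.05 over all genes, and the values ran from 0.03 for Egr2 to 1.79 for Atf3. All 10 genes had a ratio above 1 at the probe set used, and those of Fos and Egr2 were within 1.03-fold of 1 and turned below 1 after cyclic loess normalization. The genes also differed in where KOE lay between WT and KO. On the log2 scale, KOE stood at 4.07% of the way from WT to KO for Fos, 17.5% for Fosb and 32.9% for Nr4a1, at 46.4% for Ier2 and 47.6% for Junb, at 52.5% for Jun at its stronger probe set and at 141% at the weaker one, beyond the KO value, and at 59.0% for Dusp1, 61.1% for Atf3 and 83.5% for Egr1. Egr2, lower in KO than in WT, is left out of this measure. On this measure Fos and Fosb in KOE lay nearer the WT end and Egr1 nearer the KO end. The measure depends on how far KO stood from WT. As a ratio, KOE was 1.32-fold above WT for Fosb and 1.42-fold above it for Egr1. After cyclic loess normalization Dusp1 was under the cut-off (log2 0.55), and after median scaling Egr1 was past it (0.62).

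**Figure D3:**
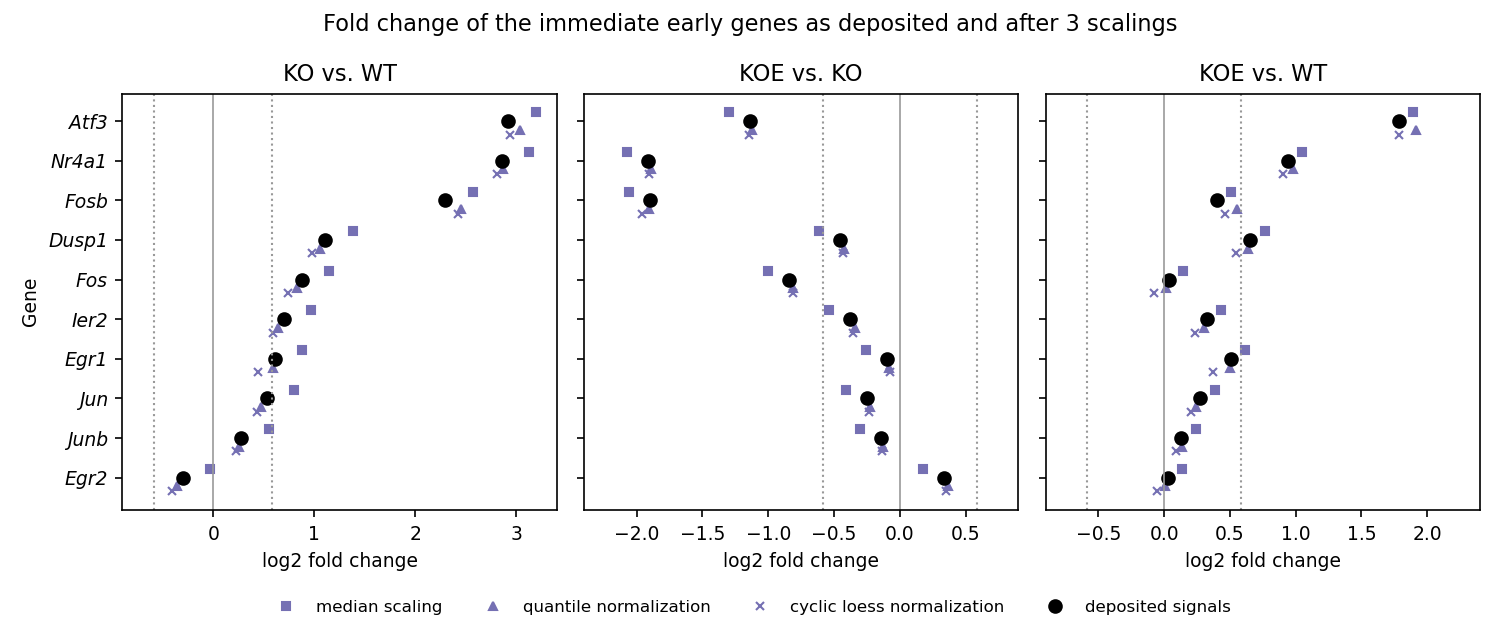
Log2 fold change of the 10 genes in the 3 comparisons, with black points for the deposited signals, purple marks for 3 ways of scaling the arrays and dotted lines at 1.5-fold. Atf3, Nr4a1 and Fosb lie above 2 in KO vs. WT under every scaling, and Egr2 is the only gene below 0 there.

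Relatives of these genes were also measured. Among the other NR4A receptors, Nr4a3 had 151 in KOE, 523 in KO and 119 in WT, a ratio of 4.40 for KO to WT, and Nr4a2 had 326, 635 and 171, a ratio of 3.70. Of the 5 probe sets of Nr4a2 that reached 40, 4 passed the cut-off with KO above WT, and their log2 fold changes ran from −0.06 to 1.89. Of the other FOS proteins, Fosl1 had 48.0 in KOE, 117 in KO and 36.1 in WT, whereas Fosl2 had 3951, 4352 and 4046, a ratio of 1.08 at its strongest probe set. The other probe set of Fosl2 was past the cut-off in both comparisons, with log2 fold changes of 0.67 (KO vs. WT) and −0.74 (KOE vs. KO), the direction seen for Fosl1. Jund, the other JUN gene, was 1.34-fold higher in KO than in WT, under the cut-off. Egr3 had a ratio of 1.04 and Egr4 one of 1.71 from weak signals, with 57.9 in KOE, 101 in KO and 59.0 in WT. These relatives were picked for their kinship with the 10 genes after values of the data had been seen.

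Of 43 other immediate early and early response genes, 17 had a KO signal above WT past the cut-off and 3 had one below it (Gadd45a, Plk3 and Nfil3), beside the 10.9% and 14.5% of all genes given above. Their median log2 fold change was 0.49. In KOE vs. KO, 12 were lower and 0 higher past the cut-off, beside the 5.33% and 10.9% of all genes, at a median of −0.25. Cebpd, a factor of the acute phase response, had the highest ratio of KO to WT of this list, with 2511 in KOE, 5134 in KO and 1090.2 in WT. For the genes with the highest mean signals of the list, read at the brightest probe set, the ratio of KO to WT was 1.13 for Btg1, an inhibitor of cell growth, 1.00 for Cebpb and 1.49 for Klf4, a factor of epidermal barrier formation, whose other probe set was past the cut-off (log2 0.74). After median scaling 26 of the 43 were higher in KO, beside 23.2% of all genes.

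Among early response genes for secreted and surface proteins and their enzymes, 17 reached 40 in KO or WT, and 6 of these were higher in KO and 2 were lower (Lif and Edn1), beside 10.9% and 14.5% of all genes, with a median log2 fold change of 0.38. Ptgs2, the inducible cyclooxygenase, was 7.42-fold higher in KO than in WT and 3.48-fold lower in KOE than in KO, though its WT signal of 39.2 was under the limit. The other probe set of Ptgs2 was also past the cut-off, with log2 fold changes of 2.81 (KO vs. WT) and −0.74 (KOE vs. KO). Ccn1, a matrix protein that binds integrins, had 1399 in KOE, 3996 in KO and 770.1 in WT, and all 4 of its probe sets were past the cut-off in both comparisons. Ccn2, its relative, did not share the second difference, with 4175 in KOE, 3556 in KO and 2227 in WT. In KOE vs. KO, 6 of 17 were lower and 1 (Lif) was higher, beside 5.33% and 10.9%. After median scaling 11 of the 18 genes that then reached 40 were higher in KO, beside 23.2% of all genes, and KOE was below KO past the cut-off for 8, beside 9.01%.

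Genes that restrain the response were measured in a list of 14 corepressors, decay factors and feedback regulators. For KO vs. WT their median log2 fold change was 0.54, with 6 higher and 1 lower, beside 10.9% and 14.5% of all genes. After median scaling 10 were higher and 0 lower, beside 23.2% and 8.88%. Tsc22d3, a glucocorticoid-induced leucine zipper protein, had 6269 in KOE, 9709 in KO and 3955 in WT at its strongest probe set, but its 4 probe sets ran from 0.12 to 1.70. Spry1, an inhibitor of receptor tyrosine kinase signaling, was 2.23-fold higher in KO, and Nfkbia, the inhibitor of NF-κB, 1.90-fold. Nab2, a corepressor of EGR proteins, was the gene that was lower, with 671 in KOE, 501 in KO and 775 in WT. In KOE vs. KO, Tsc22d3 was the 1 gene lower past the cut-off, beside 5.33% of all genes, and 3 were lower after median scaling, beside 9.01%. Of the 8 other dual specificity phosphatases of MAP kinases that reached 40, KO was above WT for 1 and below it for 2 past the cut-off, beside 10.9% and 14.5% of all genes. Dusp8 was higher in KO than in WT, with 454 in KOE, 635 in KO and 379 in WT at its strongest probe set. Its other probe set that reached 40 had a log2 fold change of −0.20. Dusp16 was under the cut-off at its strongest probe set and at −1.35 at the other. Dusp2 and Dusp4 were lower, with Dusp2 at 98.5 in KOE, 137 in KO and 595 in WT, and the median of the list was −0.26. After median scaling 3 were higher and 2 lower at a median of 0.01, beside 23.2% and 8.88% of all genes. KOE was then below KO past the cut-off for 4, beside 9.01% of all genes, against 0 as deposited, beside 5.33%.

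The counts for kinases and factors that act before these genes stand beside 10.9% higher and 14.5% lower over all genes in KO vs. WT. Of 22 MAP kinases and upstream kinases measured, 2 were higher in KO than in WT (Mapk7 and Map3k8) and 2 were lower (Map3k5 and Braf), with a median log2 fold change of −0.02, and in KOE vs. KO 0 passed the cut-off in either direction at the brightest probe set, although 8 of the 22 had another probe set past it. Mapk14, which encodes p38 alpha, had 2256 in KOE, 2864 in KO and 2303 in WT at its strongest probe set, and its 5 probe sets that reached 40 in KO or WT ran from −0.71 to 0.48 in log2 fold change for KO vs. WT. Of 16 factors and cofactors that bind immediate early promoters, Srf and Crem were higher in KO and Crtc2 was lower, and the median was 0.11. Crtc2, a coactivator of CREB, had 192 in KOE, 125 in KO and 222 in WT at its strongest probe set. With each gene read at its brightest probe set, Crtc2 was the 1 gene of this list past the cut-off in KOE vs. KO. The other probe set of Crtc2 was under it, with log2 fold changes of 0.11 (KO vs. WT) and −0.14 (KOE vs. KO). Over all probe sets, 4 of the 16 genes had one past it in KOE vs. KO (Mrtfb, Creb1, Crtc1 and Crtc2). In KO vs. WT, 4 of the 16 had a probe set higher past the cut-off and 5 had one lower. For the 22 kinases these counts were 2 and 8. The shares over all genes are those at the brightest probe sets. Srf, the serum response factor, had 873 in KOE, 869.5 in KO and 576 in WT, so its ratio of KO to WT of 1.51 was only just past the cut-off. The other probe set of Srf was under it, with a log2 fold change of 0.36. The 3 probe sets of Crem that reached 40 ran from −0.05 to 0.59, with 1 past the cut-off. In a list of 21 measured AP-1 and other leucine zipper partners, which shares Fosl1, Maff, Cebpd and others with the list of immediate early genes, the KO signal passed the cut-off above WT for 6 and below it for 1, beside 10.9% and 14.5% of all genes, and KOE passed it below KO for 5, beside 5.33%. Of 12 heat shock genes, the chaperones induced by protein damage, 1 was higher in KO than in WT, namely Hspa1a with 2824 in KOE, 4118 in KO and 2198 in WT, and 0 were lower. The heat shock median was 0.02 as deposited, and 5 of the 12 were higher after median scaling, beside 23.2% of all genes.

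**Figure D4:**
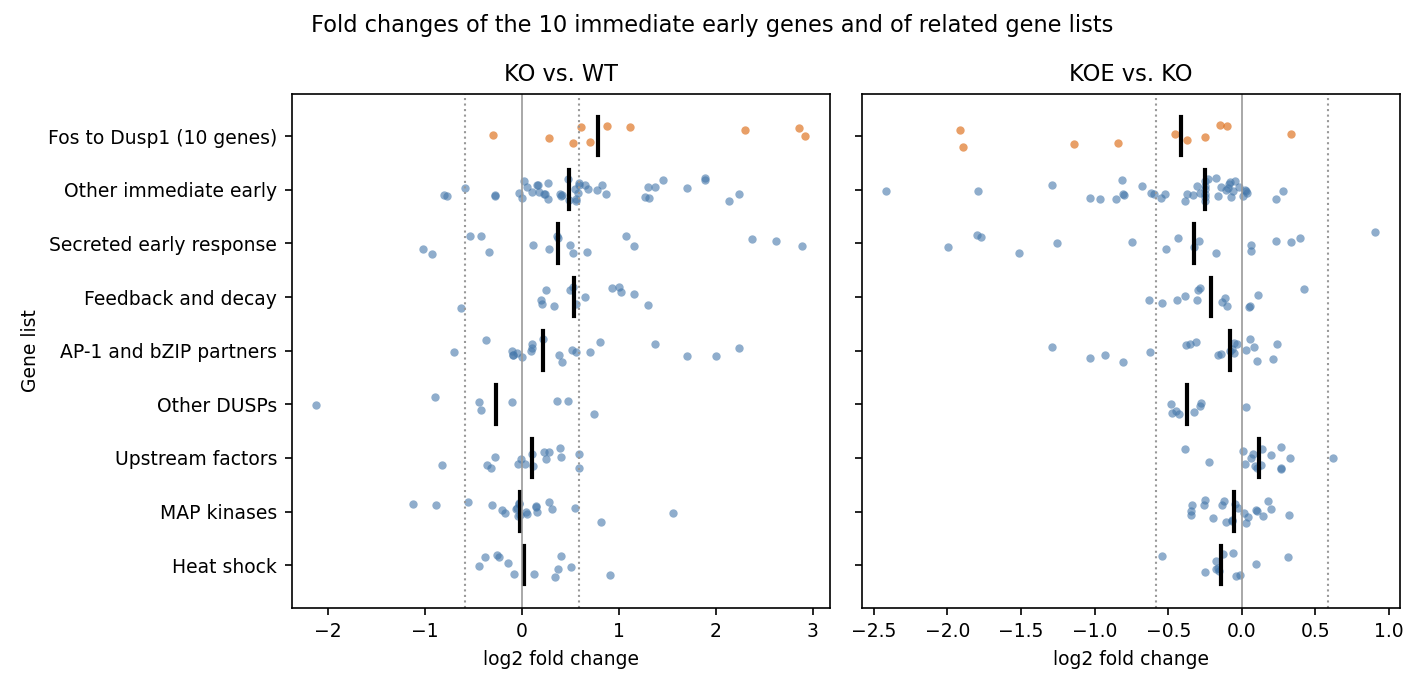
Log2 fold change of each gene of 9 lists that reached 40 in 1 of the 2 arrays, with KO vs. WT in the left panel and KOE vs. KO in the right, with the black bar at the list's median and dotted lines at 1.5-fold. In KO vs. WT the 10 genes have a median of 0.79, the other immediate early genes 0.49, MAP kinases −0.02 and heat shock genes 0.02.

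Over 12877 other genes with at least 40 in every array, those nearest to the 10 genes' median in the plane of the log2 fold changes KO vs. WT and KOE vs. WT were Ahrr, Sgms1, Cyp2r1, Elmod1 and Galns, at distances of 0.0034 to 0.024. Ahrr, the repressor of the aryl hydrocarbon receptor, had 184 in KOE, 247 in KO and 143 in WT. With 3 arrays such a likeness describes the pattern of 3 values.

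The labelled tissue was checked by its markers. The 9 epidermal keratinocyte markers measured summed to signals of 168195 in KOE, 162769 in KO and 138698 in WT, and the 9 fibroblast markers to 141882, 117499 and 148185, with every marker over 1000 in every array. Markers of other cells moved with the groups. The 12 hair follicle markers summed to 1188 in KOE, 1325 in KO and 175405 in WT, all 12 lower in KO than in WT. Those of skeletal muscle (11) summed to 41667, 10018 and 29178, with 9 lower in KO than in WT and 10 higher in KOE than in KO, and those of adipocytes (5) to 11534, 5323 and 18833, all 5 lower in KO and all 5 higher in KOE. The sums of macrophage, mast cell, neutrophil, T cell and red blood cell markers were highest in KO. Macrophage markers (11) summed to 15385, 24004 and 20192, with 0 past the cut-off in KO vs. WT and 6 lower in KOE than in KO. Those below their WT signal in KO included Cd68 (470 in KO and 532 in WT), Csf1r (4582 and 4856) and Adgre1 (736 and 815). After median scaling 6 of the macrophage markers were higher in KO than in WT, beside 23.2% of all genes, at a median log2 fold change of 0.60. Mast cell markers (8) summed to 1721, 3166 and 2050.3, with 4 higher and 1 lower in KO than in WT and 5 lower in KOE than in KO, while Fcer1a stayed under 40 in all arrays. Neutrophil markers (7) summed to 769, 1550.4 and 1303, with Cxcr2 and Camp under 40 in all arrays. Of the 5 that reached 40, 3 were higher and 1 (Elane) lower in KO than in WT, and 3 were lower and 1 higher in KOE than in KO. The strongest of them, S100a8, had 293 in KOE, 815 in KO and 982 in WT. T cell markers (7) summed to 1598, 1709 and 1356, with Cd4 and Tcra under 40 in all arrays, and red blood cell genes (4) to 374, 776 and 528. The red blood cell genes went both ways, with Alas2 at 223 in KOE, 495 in KO and 77.7 in WT and Slc4a1 at 48.9, 127 and 394. Endothelial markers (7) summed to 4243, 3756 and 2514, with 3 higher in KO than in WT. None of these markers was at 0. As a sign of RNA quality, the ratio of the 3′ to the 5′ control probe set was 1.56 in KOE, 1.51 in KO and 1.59 in WT for beta-actin and 0.77, 0.70 and 0.73 for Gapdh. It was 3.63, 5.11 and 8.73 for the transferrin receptor and 14.7, 10.02 and 7.95 for pyruvate carboxylase, whose 5′ probe sets had signals of 21.4 to 70.7. The part of these cells and of RNA quality in the differences of the immediate early genes was not tested.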

How the data were processed

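Pooled back-skin RNA of each group was labelled with a 3′ IVT kit and hybridized to an Affymetrix mouse genome array. The deposited values are linear signal intensities, computed by the authors in the Affymetrix Microarray Analysis Suite. No scanner files or detection calls were used here. Of 45101 probe sets on each array, 64 control probe sets were set aside. Probe sets with 1 gene in the platform annotation (34945) were named through gene identifiers where these matched, for 34741. Another 932 name several genes and 9160 are unnamed here. Each gene is represented by the brightest of its probe sets over the 3 arrays, and ratios were formed with no further scaling. The cut-off (1.5-fold, signal of 40) is that of the study's methods, and a signal of 40 in either array was taken to suffice. The 10 genes and all lists were chosen with earlier results of these data known. Of each related list, the 3 genes with the highest signal and the 2 with the largest differences could be named, besides genes of counts of up to 5 and relatives of the 10 genes. Alternatives were median scaling, quantile and cyclic loess normalization (span 0.7, 3 iterations), other signal and fold limits, an offset of 40 and other choices of probe set. The calling was tested on simulated data. Motifs were searched in the 250 bases before RefSeq start sites. Python 3.11.15, numpy 2.4.6, pandas 2.3.3, scipy 1.17.1, R 4.3.3 and limma 3.58.1 were used.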

Additional observations from a re-analysis of the deposited data

How the results depend on the processing

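With 1 array of pooled RNA per group, the number of arrays limits the precision, and no leaving out of a replicate and no paired analysis was possible because each group has a single array. With a fold limit of 2, 4 of the 10 immediate early genes were higher in KO than in WT and 1 was higher in KOE than in WT, against 7 and 3 at 1.5-fold. Over all genes, 4.27% and 4.84% were higher at the limit of 2. Fewer genes pass a higher limit by construction. Under the other alternatives, these counts of the 10 genes ran from 6 to 8 and from 2 to 4, and that of genes lower in KOE than in KO from 3 to 5, the fold limit of 2 included. The matching shares of all genes ran from 7.96% to 23.2%, from 8.08% to 17.4% and from 2.29% to 9.33%. The median log2 fold change ran from 0.66 to 1.06 for KO vs. WT and from −0.57 to −0.38 for KOE vs. KO. Of 180 values of single genes under alternative scalings, offset and probe sets, 180 moved by less than the SD between probe sets of 1 gene over all signal levels (0.35 for KO vs. WT, 0.28 for KOE vs. KO and 0.33 for KOE vs. WT). Part of that count was fixed beforehand. Median scaling shifts all genes of a comparison by 1 constant (log2 0.27, −0.16 and 0.11), each smaller than its SD. Taking the mean of all probe sets can move only Jun and Egr2, and the other choice of probe set left every value unchanged. Against the smaller SD at each gene's own signal level, 20 of the 180 moved by 1 SD or more, 16 of them under median scaling. Fos and Egr2 changed sign, in KOE vs. WT, and the other 8 genes did not.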
